A study of Mus musculus with 4 samples.

Results

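Proximal tubule cells of mouse kidney were compared between the seventh and the fourth day of glyoxylate injection, to describe which genes were still rising, had levelled off or were returning. The measurement was droplet single-cell RNA sequencing of trypsin-digested whole kidney from male C57BL/6 mice aged 6 to 8 weeks, with 1 library for each of 4 groups. All groups were of the same strain and sex, and the labels name no other genotype. They differ in the number of successive days of intraperitoneal glyoxylate, which was 0 (D0), 1 (D1), 4 (D4) or 7 (D7), and the labels do not say how many animals went into a library. A cell was taken as proximal tubule when it held at least 3000 unique molecular identifiers (UMIs, each standing for 1 captured RNA molecule), at most 50% of them mitochondrial, and at least 2 UMIs of Lrp2, Slc34a1 and Cubn in sum. It also had to hold no UMI of Ptprc, the pan-leukocyte gene, and none of Slc12a1 or Slc12a3, the salt transporters of the distal nephron. These limits kept 14194 cells at D4 and 11418 at D7, together 25612 of the 31514 barcodes of both libraries, and 8295 and 5449 cells at D0 and D1 are shown beside them. Over the 4 libraries the gate held 39356 of 60670 barcodes.

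The proximal tubule takes back most of what the glomerulus filters. Slc34a1 carries phosphate, while Lrp2 (megalin) and Cubn (cubilin) are the receptors that draw filtered protein into the cell. Glyoxylate is a precursor of oxalate, which precipitates with calcium as crystals in the tubule, and tubule cells injured by crystals are known to make osteopontin, Kim-1 (the product of Havcr1), chemokines and matrix proteins.

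The gated cells carried markers of their name beyond the genes that chose them. The 10 proximal tubule markers outside the gate, among them Slc22a6, Miox and Ass1, summed to 10290 CPM (a gene's UMIs scaled to the same total of gated UMIs in every library) at D4 and 9988 at D7, against 4368 in immune-gated and 3497 in distal-gated cells at D7. None of the 10 differed by 1.5-fold between D4 and D7. The cells summed to 80321306 UMIs at D4 and 75590030 at D7, with medians of 5047.5 and 5805 UMIs and of 16.9% and 17.9% mitochondrial UMIs per cell. The gate genes had a median of 19 UMIs per cell in both libraries. Exactly 2 gate UMIs were held by 258 cells at D4 and 310 at D7, and 241 and 372 cells fell short with 1. D4 and D7 shared 81 barcodes. A level below is a gene's CPM over all gated cells of a library, and a ratio is the D7 level over the D4 level with an exact 95% Poisson interval. Since each day has a single library, animals could not be compared by a test, and intervals cover counting error only.

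Markers of other cells also moved inside the gate. The 10 mononuclear phagocyte markers summed to 62.1 CPM at D4 and 103.6 at D7, against 7448 and 15610 in immune-gated cells. The urothelial markers fell from 28.6 to 5.91 CPM, the B cell markers from 13.8 to 7.53 and the erythroid markers from 125 to 46.9. Of the B cell sums, Ly6d alone made 7.52 and 3.45 CPM, and it was at 31.9 CPM at D0, where Cd79a was at 1.92. The sum of the intercalated cell markers rose from 21.2 to 31.9 CPM. Most of this was Atp6v1g3, from 16.15 to 25.43 CPM. Foxi1, Atp6v0d2 and Slc26a4 were also higher at D7, at ratios of 1.92, 1.57 and 1.225. Slc4a1, Slc4a9 and Aqp6 were lower, at ratios of 0.610, 0.759 and 0.858. The intervals of Slc26a4, Slc4a1, Slc4a9 and Aqp6 reached 1. Slc12a1 and Slc12a3 had no UMI at D4 or D7, as the gate requires. RNA carried over from immune cells was put at 1.37% of their level at D4 and 0.838% at D7, and that from distal tubule cells at 0.275% and 0.339%. Each is a median over markers. Over the 10 phagocyte markers the share ranged from 0.497% to 2.53% at D4 and from 0.497% to 2.225% at D7. Over 7 thick ascending limb markers it ranged from 0.201% to 1.43% and from 0.190% to 2.01%.

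Most genes differed little between the fourth and the seventh day. Of the 11121 genes with a mean of at least 1 CPM, 241 were at least 1.5-fold higher at D7 (2.17%) and 93 at least 1.5-fold lower (0.836%), or 3% either way. At 1.2-fold, 1116 were higher (10%) and 586 lower (5.27%), and 84.7% lay within it. The median log2 ratio was 0.04. With the carried RNA taken off, 230 of the 241 and 86 of the 93 were still past 1.5-fold, counting any gene left with no level at D4. With the filter of 1 CPM applied again after this step, 211 and 84 were kept. Of the 241, 101 lay below 0.25 of the level in immune-gated or distal-gated cells, and 19 of the 93 did. In cells without Slc7a13 and Slc7a12, transporters of the last proximal segment, 471 genes were higher and 223 lower, including 209 of the 241 and 74 of the 93. That subset held 6434 cells at D4 and 5255 at D7. Set against the change already made by D4, 718 genes (6.46%) had risen 1.5-fold from D0 and 188 (1.69%) had fallen. Among those that rose, 350 (3.15% of all genes) were another 1.2-fold higher at D7 and are called still rising, 305 (2.74%) had levelled off, and 63 (0.566%) were returning. Among those that fell, 62 (0.558%) were still falling, 89 (0.8%) had levelled off and 37 (0.333%) were returning. A further 91 genes (0.818%) rose and 40 (0.360%) fell by 1.5-fold after D4 only. Both ratios contain the D4 library, so an error in it would push them in opposite directions, and the classes are descriptions. The shallowest deposited barcode held 500 UMIs in the D0 and D1 libraries, 2919 in D4 and 2773 in D7, so the 2 libraries of each D4 over D0 ratio differ in this floor. The limit of 3000 UMIs was applied to all 4, and at 5000 UMIs no class count moved by over 1.5 times, with 261 genes higher and 103 lower at D7.

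**Figure D1:**
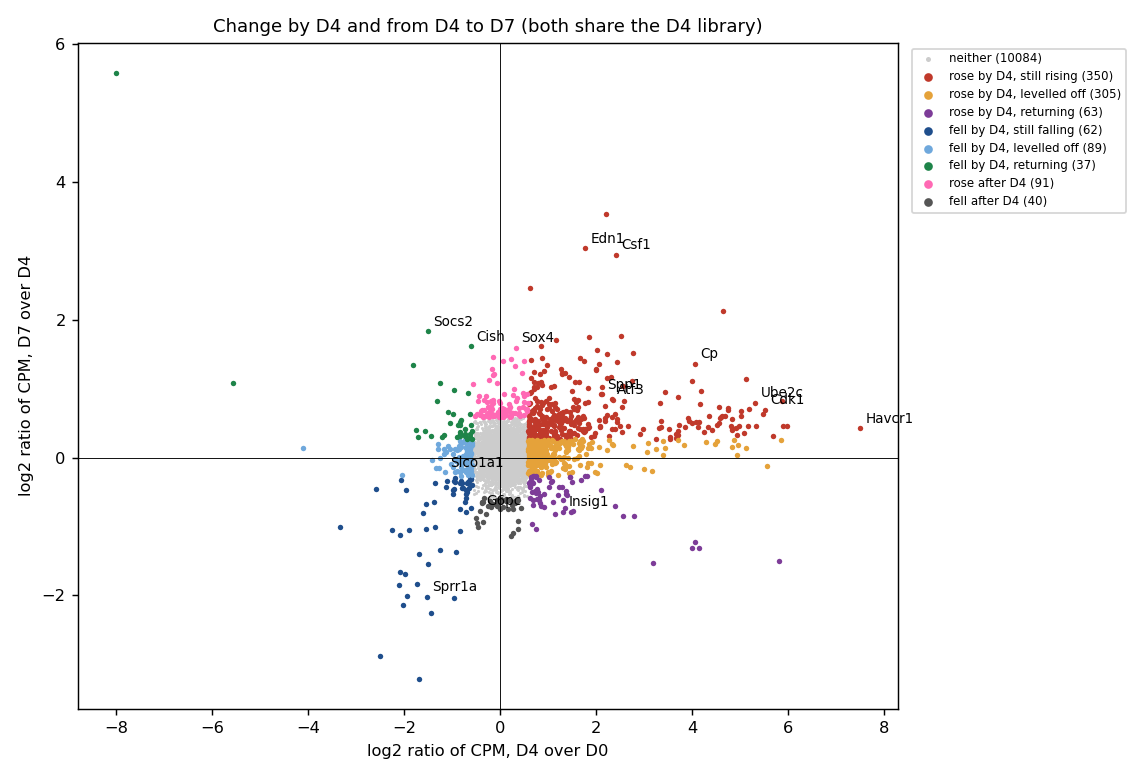
Each point is a gene with a mean of at least 1 CPM: the x axis is the log2 ratio of D4 over D0, the y axis that of D7 over D4, and the colours are the classes with their gene counts. Genes with no UMI in a library of either ratio are not drawn; Havcr1 lies far right and little above 0, while Socs2 and Cish lie left of 0 and high. The point at the upper left is Aqp2, a principal cell marker, at 0.0249 CPM at D4 and 1.19 at D7.

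Nearly all genes of tubule injury that passed 1.5-fold rose. Of 24 such genes, all measured, 11 rose and 2 fell, with a median log2 ratio of 0.57 against 0.04 over all genes. By 1.5-fold, 2.17% of all genes rose and 0.836% fell, the shares to set beside each list count below. Spp1, which encodes the crystal-binding secreted protein osteopontin, was at 256 CPM at D0, 539 at D1, 1115 at D4 and 2111 at D7. It was higher in each later library, and the D7 level was 1.89 times that of D4 (1.88 to 1.91). Sox4, a transcription factor of developing and repairing epithelium, was at 4.39, 5.93 and 5.54 CPM at D0, D1 and D4 and 16.8 at D7, a ratio of 3.02 (2.71 to 3.38). Vcam1, an adhesion molecule, went from 1.61 to 3.48 CPM, a ratio of 2.17 (1.75 to 2.7), and was at most 0.178 before D4. Only 60 cells held it at D4, and 10 of them had 53.5% of its UMIs, against 31.9% in 10 cells at D7. The fibrinogen chains Fga and Fgg rose by ratios of 1.82 and 1.90. Fgb was at 1.47, just under the threshold. Lcn2, which encodes the iron-siderophore binder NGAL, was at 0.605, 3.94, 3.09 and 5.49 CPM, a ratio of 1.78 (1.52 to 2.09) and of 1.55 with carried RNA taken off. Its UMIs were concentrated, with 56% of those at D4 and 39.5% at D7 in 10 cells. The 2 that fell were the keratins Krt7 and Krt19, at 0.572 and 0.489 of their D4 level, which moved with the urothelial markers.

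Havcr1 fell in the still rising class but under the 1.5-fold threshold. It stood at 0.0864 CPM at D0, 5.70 at D1, 15.7 at D4 and 21.1 at D7, higher in each later library, and its ratio was 1.34 (1.25 to 1.45). Cells with a Havcr1 UMI numbered 440 of 14194 at D4 (3.1%, exact interval 2.82 to 3.4) and 542 of 11418 at D7 (4.75%, 4.36 to 5.15). With every cell thinned to 3000 UMIs the shares were 2.04% (1.82 to 2.29) and 2.76% (2.47 to 3.08). Distal-gated cells, with median depths of 5282 and 5870 UMIs, held it in 1.16% and 1.4% after thinning, and immune-gated cells, with 4821 and 4913, in 0.820% and 1.09%. The proximal tubule shares lay above both at D4 and D7. The references rest on only 345 and 501 distal-gated and 366 and 553 immune-gated cells. Their shares were given no interval, so the gap to them cannot be sized.

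**Figure D2:**
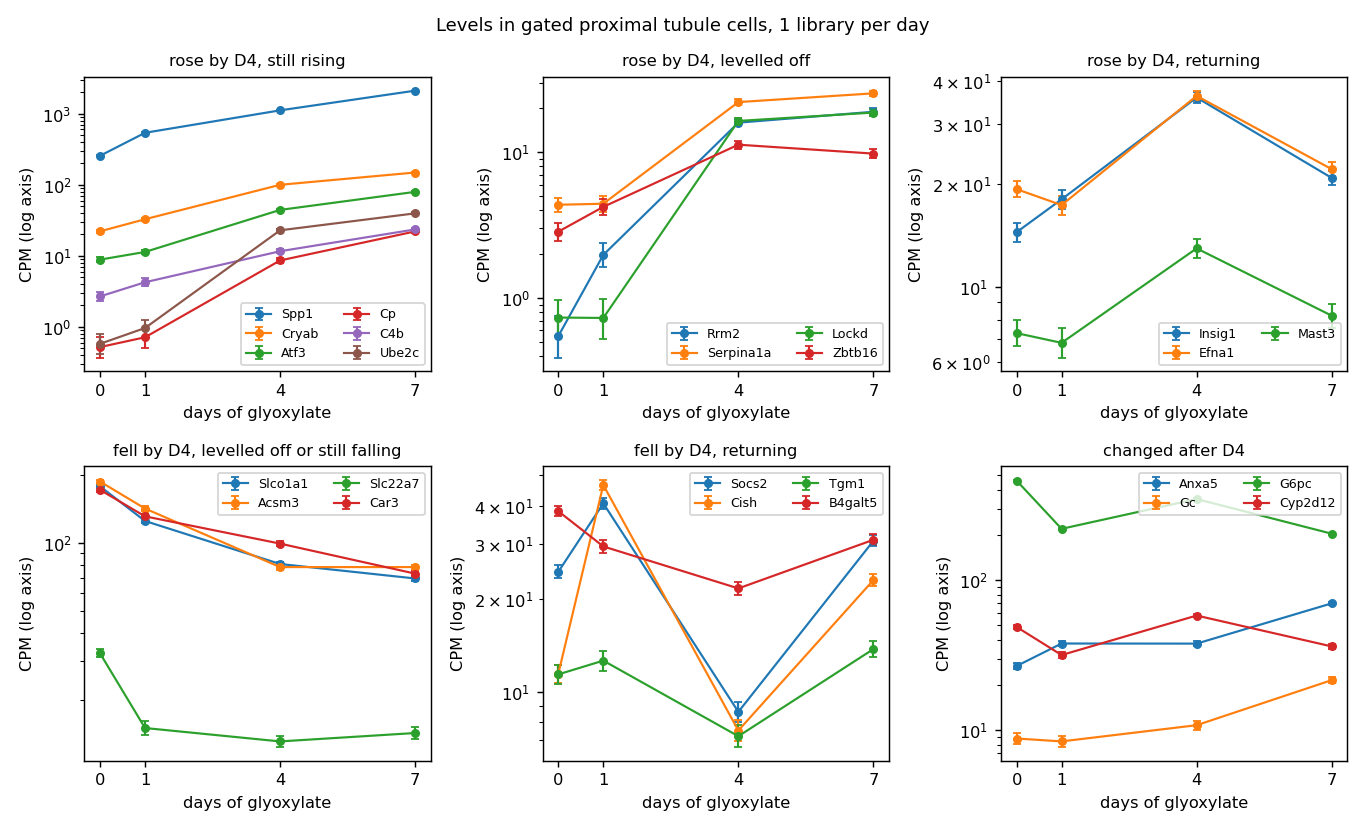
CPM on a log axis against days of glyoxylate, 1 point per library, with 95% Poisson bars for counting error, for named genes of each class. Spp1 climbs throughout, Insig1 peaks at D4, and Socs2 and Cish are lowest at D4.

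Cells with a Havcr1 UMI held 3.86% of the gated UMIs at D4 and 6.03% at D7. Without them 215 genes were higher and 102 lower, 200 and 91 of which were among the 241 and 93. Spp1 was then at 929.5 CPM at D4 and 1667 at D7, a ratio of 1.79 (1.78 to 1.81), and Sox4 was at 2.75. The ratio of Cryab, a small heat shock protein, was 1.74 in place of 1.49. In the Havcr1-bearing cells themselves it was at 956.7 CPM at D4 and 696.3 at D7.

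**Figure D3:**
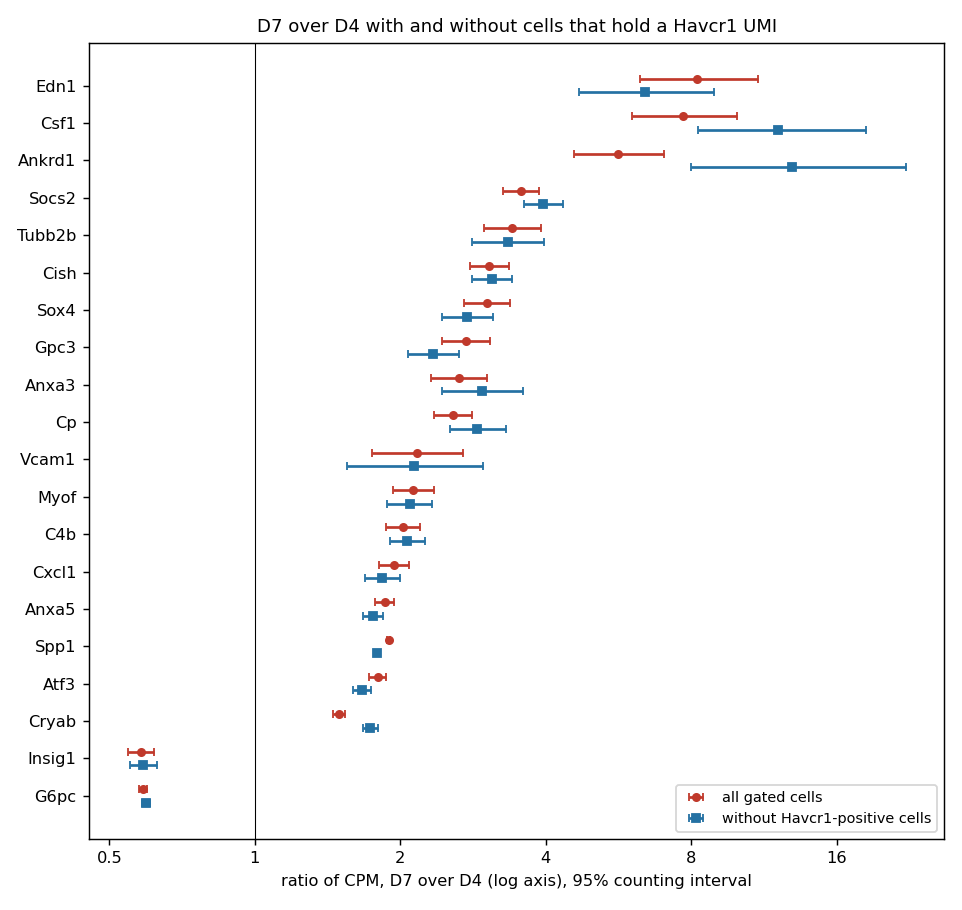
Ratios of D7 over D4 on a log axis with 95% counting intervals, over all gated cells (circles) and without cells that hold a Havcr1 UMI (squares). Most pairs lie close together; Csf1 and Ankrd1 move from 7.70 and 5.65 to 12.1 and 12.9, with wide intervals.

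Of the 6 crystal-binding and stone-matrix genes that passed the filter, out of 16, 4 rose and none fell, with a median log2 ratio of 0.81. Besides Spp1 they were Thbs1, Anxa1 and Anxa2. The ratios of Anxa1 and Anxa2 were 1.61 and 1.94, and 2.55 and 3.5 with carried RNA taken off. Both moved by over 1.5 times, so their sizes cannot be read. Among 17 S100, annexin and galectin genes 4 rose, all annexins (0.24). Anxa5, which binds phosphatidylserine, was at 26.8, 37.8, 37.8 and 70.1 CPM, a ratio of 1.86 (1.77 to 1.94), with D7 the highest and D1 and D4 level. Anxa3 went from 3.82 to 10.1 CPM. Of 27 actin, tubulin and thymosin genes, 13 were at least 1.2-fold higher and none lower, where 10% and 5.27% of all genes were. At 1.5-fold 3 passed (0.26), Tubb2b, Tuba1a and Tubb2a. Tubb2b was at 0.619, 1.78, 3.54 and 12.1 CPM, a ratio of 3.41 (2.98 to 3.91). Distal-gated cells held it at 86.8 CPM at D4 and 93.3 at D7. Reads of tubulin copies may be split between them. The ratio of Tuba1a was 1.6, 2.8 with carried RNA taken off and 1.42 without cells holding a Havcr1 UMI. Its size cannot be read, since taking off carried RNA moved it by over 1.5 times.

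Some single genes had steep ratios from small numbers of molecules. Edn1, which encodes the vasoconstrictor endothelin, was at 0.216, 0.409, 0.735 and 6.05 CPM at D0, D1, D4 and D7. Csf1, the macrophage growth factor, was at 0.173, 0.463, 0.921 and 7.09. For both, D7 stood apart from the 3 earlier libraries, with ratios of 8.23 (6.26 to 11) and 7.70 (6.03 to 9.95), in 221 and 234 cells at D7. Distal-gated cells held more Edn1 than the gate, at 9.48 CPM at D4 and 32.6 at D7, also higher at D7. Csf1 was at 0 and 8.85 CPM in distal-gated cells and at 6.01 and 7.585 in immune-gated cells. Ankrd1, a target of the growth regulator YAP, had no UMI at D0 and 0.249, 1.31 and 7.38 CPM afterwards, a ratio of 5.65 (4.58 to 7.02). At D7, 10 cells held 41.6% of its UMIs. Ccl2, the monocyte chemokine, rose from 0.909 to 6.11 CPM, but 10 cells held 84.9% and 74.7% of its UMIs, and immune-gated cells were at 224 CPM. Its ratio was 1.39 in the cells with Slc7a13 or Slc7a12 and 19.1 in the others. Without cells holding a Havcr1 UMI the ratios of Csf1, Ankrd1 and Ccl2 were 12.1 (8.27 to 18.4), 12.9 (7.98 to 22.2) and 2.63 (1.93 to 3.61). Cxcl1, a neutrophil chemokine, was higher in each later library, at 1.43, 8.65, 15.4 and 29.9 CPM, a ratio of 1.94 (1.81 to 2.08). Cxcl2, of the same family, went from 1.87 to 5.33 CPM, a ratio of 2.85 (2.36 to 3.47), with 62% and 52.9% of its UMIs in 10 cells. The carried immune RNA was put at 1.72 of its 1.87 CPM at D4 and 3.74 of 5.33 at D7, and taking it off moved the ratio by over 1.5 times, so the size of the Cxcl2 ratio cannot be read. For Ccl2 the ratio was 14.9 with carried RNA taken off, also a move of over 1.5 times, so its size cannot be read either.

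Of the chemokine, cytokine and NF-kB list, 7 of 21 measured genes rose and 1, Ccl5, fell (median log2 ratio 0.45), where 2.17% and 0.836% of all genes did. The 7 include Cxcl2 and Ccl2, whose ratios cannot be read for size. The ratio of Il1b, also counted as higher, cannot be read, since the estimate of carried immune RNA was as large as its level. Of 13 YAP targets, 5 rose (0.28), among them F3, tissue factor, from 22.3 to 36.2 CPM, and Myof, a membrane repair protein, from 7.64 to 16.3. Of 21 matrix and protease genes, 7 rose (0.39), with Edn1, Thbs1 and Sparc the highest. None of the measured genes of these 2 lists fell by 1.5-fold.

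The 250 bases before the RefSeq start (GRCm38.p6) are shown for Cxcl1, Cxcl2 and Csf1, which hold a copy of an NF-kB site consensus of 10 letters on either strand, and for Ankrd1, which holds the letters GGAATG of the YAP partner TEAD. Capitals mark the matches, and in Csf1 the match reads on the opposite strand. Both motifs were chosen after the values were seen. The first is in 0.356% of 32851 windows of the same source and the second in 12.6%.

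Cxcl1, chr5:90890995-90891244, plus strand: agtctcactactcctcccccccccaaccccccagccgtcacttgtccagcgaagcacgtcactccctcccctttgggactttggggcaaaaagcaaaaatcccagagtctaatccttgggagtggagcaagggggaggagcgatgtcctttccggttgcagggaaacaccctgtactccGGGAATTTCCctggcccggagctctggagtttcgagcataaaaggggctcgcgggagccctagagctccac

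Cxcl2, chr5:90903649-90903898, plus strand: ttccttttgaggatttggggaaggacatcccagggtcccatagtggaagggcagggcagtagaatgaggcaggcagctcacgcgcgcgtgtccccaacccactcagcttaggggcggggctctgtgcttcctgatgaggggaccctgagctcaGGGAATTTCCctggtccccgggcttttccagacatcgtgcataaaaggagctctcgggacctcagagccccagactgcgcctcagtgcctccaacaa

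Csf1, chr3:107760470-107760719, minus strand: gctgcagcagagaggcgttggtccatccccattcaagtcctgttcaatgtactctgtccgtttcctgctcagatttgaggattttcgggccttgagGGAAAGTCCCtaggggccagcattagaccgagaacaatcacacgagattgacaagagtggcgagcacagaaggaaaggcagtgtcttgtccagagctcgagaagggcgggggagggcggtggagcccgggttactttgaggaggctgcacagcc

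Ankrd1, chr19:36119845-36120094, minus strand: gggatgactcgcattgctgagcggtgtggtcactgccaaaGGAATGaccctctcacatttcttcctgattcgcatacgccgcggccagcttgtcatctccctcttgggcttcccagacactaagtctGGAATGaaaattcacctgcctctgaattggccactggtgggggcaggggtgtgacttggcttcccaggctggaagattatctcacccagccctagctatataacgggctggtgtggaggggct

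Other motifs were counted in the promoters of the 9 of 12 highest and 9 of 12 lowest named genes that the RefSeq table holds. AP-1 letters (TGANTCA) were in 3 and 2 of them, against 7.82% of all genes. The cyclic AMP element was in 0 and 0 (1.77%), the heat shock element in 2 and 0 (14.6%), the E-box in 0 and 1 (6.86%) and the antioxidant element in 0 and 3 (11.5%). Of the motifs shown above, the NF-kB site was in 1 and 0 (0.414%) and the TEAD letters in 4 and 1 (14.4%).

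Cp and 3 complement genes were in the still rising class. Cp, ceruloplasmin, a copper-carrying ferroxidase, was at 0.518, 0.712, 8.59 and 22 CPM, a ratio of 2.57 (2.35 to 2.81), and of 4.45 in cells without Slc7a13 and Slc7a12. C4b, a complement component, was at 2.68, 4.24, 11.6 and 23.5 CPM, a ratio of 2.03 (1.87 to 2.2). Cfi, the complement inhibitor factor I, was at 2.78, 3.15, 8.25 and 17.6 CPM, a ratio of 2.13 (1.94 to 2.34). For Cp, C4b and Cfi the D7 library was the highest and D0 the lowest. Of 10 complement genes measured, 3 rose and none fell (median log2 ratio 0.19), the other riser being C3 at 1.52, or 1.48 without cells holding a Havcr1 UMI. Thinned to 3000 UMIs, C4b was in 3.32% of cells at D4 (3.03 to 3.63) and 6.60% at D7, beside 3.01% and 3.98% of immune-gated cells. The D4 interval reaches close to the immune-gated share, which is not a clean background. Immune-gated cells held 7953 CPM of the proximal tubule markers at D4, against 13940 in the gate. Distal-gated cells held C4b in 0.870% at D4 and 2.4% at D7. Gc, vitamin D-binding protein, was at 8.79, 8.4 and 10.8 CPM until D4 and rose to 21.5, a ratio of 2 (1.84 to 2.17).

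**Figure D4:**
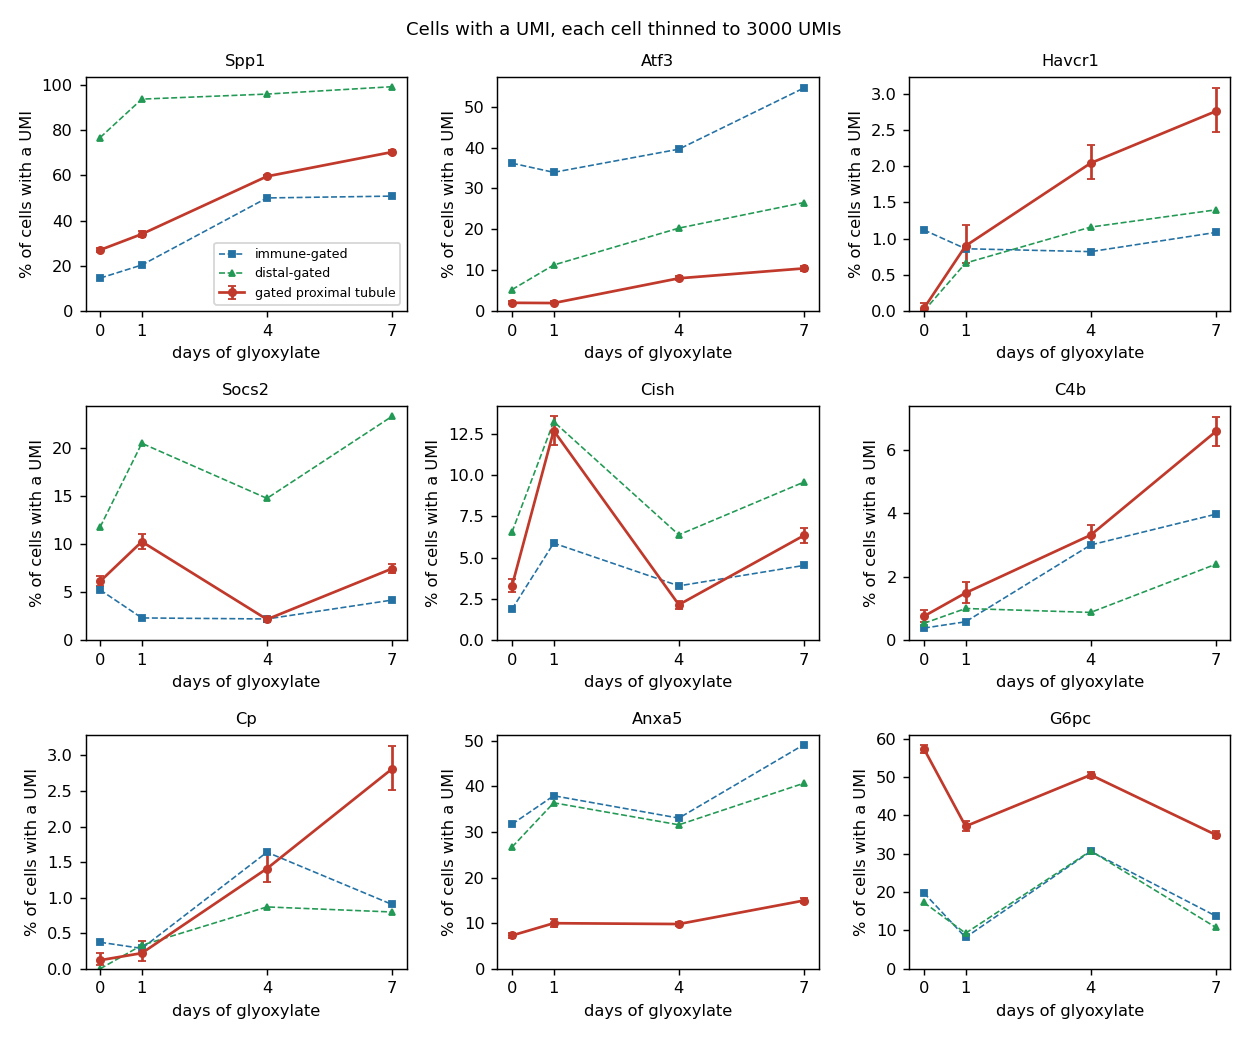
Percent of cells with at least 1 UMI of a gene against days, after each cell was thinned to 3000 UMIs: gated proximal tubule (circles, exact 95% binomial bars), immune-gated and distal-gated cells (dashed). Several of these genes are also made by the reference cells, so only Havcr1, C4b and Cp are read against them. Cp passes the immune share at D7, at 2.81% against 0.904% of 553 cells, a reference share without an interval.

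Socs2 and Cish, STAT5 targets that damp growth hormone and cytokine receptors, had fallen by D4 and came back by D7. Socs2 was at 24.4 CPM at D0, 40.6 at D1, 8.64 at D4 and 30.8 at D7, a ratio of 3.56 (3.27 to 3.88). Cish was at 11.4, 46.6, 7.52 and 23 CPM, a ratio of 3.06 (2.79 to 3.36). In the GENCODE M21 annotation of mm10, not known to be the one behind the counts, Socs2 (ENSMUSG00000020027) lies at chr10:95385362-95417180 on the minus strand and Cish (ENSMUSG00000032578) at chr9:107296026-107302784 on the plus strand. D4 was the lowest of the 4 libraries for both and D1 the highest, and the ratios were 3.96 and 3.1 without Havcr1-bearing cells. Distal-gated cells held Socs2 at 48.9 CPM at D4 and 94.3 at D7, also higher at D7. Tgm1, a transglutaminase, returned from 7.21 to 13.8 CPM, above its D0 level of 11.4.

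Cell cycle genes were mostly higher again at D7. Of 29 measured, 16 were at least 1.2-fold higher and 1 lower, where 10% and 5.27% of all genes were. By 1.5-fold, 5 rose and 1, Ccnd2, fell. Their median log2 ratio was 0.32, while that from D0 to D4 had been 3.08. Ube2c, which tags mitotic proteins for destruction, was at 0.576, 0.962, 22.8 and 39.6 CPM, a ratio of 1.73 (1.64 to 1.84). Cdk1, the mitotic kinase, was at 0.374, 1.07, 17.2 and 27.9, a ratio of 1.62 (1.51 to 1.74). Rrm2, which supplies deoxynucleotides, had levelled off, at 16 and 19 CPM.

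Of 20 immediate-early genes, 4 rose, and the median log2 ratio was 0.02. Atf3, a stress-induced transcription factor, was at 8.83, 11.3, 44.2 and 79.4 CPM, a ratio of 1.80 (1.72 to 1.87). Fos and Jun, picked after their values were seen, had levelled off, with 473 and 475 CPM for Fos and 945 and 863 for Jun at D4 and D7. None of 18 heat shock genes and none of 25 unfolded protein and integrated stress genes passed 1.5-fold, with medians of 0.07 and -0.01, where 3% of all genes did, so these counts are near the general share. The closest, Cryab, was at 22.1, 32.7, 99.8 and 149 CPM, a ratio of 1.49 (1.45 to 1.53). Hspa1a was at 1.35 and its near-identical copy Hspa1b at 1.26, and reads of the pair cannot be fully told apart. The antioxidant gene Gclc, the rate-limiting enzyme of glutathione synthesis, rose after D4 and was at 109 CPM at D0, 162 at D1, 96.1 at D4 and 160 at D7 (ratio 1.67, 1.62 to 1.72). The ratio of Gclc was 1.83 in cells with Slc7a13 or Slc7a12 and 1.31, under the threshold, in the others.

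The lipid synthesis genes Insig1 and Srebf1 were highest at D4. Insig1, which holds back sterol synthesis, was at 14.4, 18, 35.8 and 20.8 CPM, a ratio of 0.581 (0.546 to 0.618). Srebf1, the transcription factor of fatty acid synthesis, went from 20.5 to 13.4, a ratio of 0.652 (0.602 to 0.706), its D0 level being 11.8. These were the 2 of 20 list members that fell, none rose, and the median log2 ratio was -0.15. Sqle, an enzyme of sterol synthesis picked after its values were seen, was at 44.9 and 57.1 CPM. Efna1, a ligand of Eph receptors, fell from 36.2 to 22.1.

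G6pc, the last step of glucose release, was the only one of 15 gluconeogenesis and ammoniagenesis genes past the threshold. It was at 462 CPM at D0, 220.3 at D1, 348 at D4 and 204 at D7, a ratio of 0.587 (0.576 to 0.599). Ttr, transthyretin, was at 391, 209.5, 372 and 232 CPM (0.623, 0.612 to 0.635). In both, D1 and D7 were low and D0 and D4 high. Igfbp1, a fasting-induced binding protein, fell from 15.3 to 8.66 CPM.

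Counts of transport and identity genes past 1.5-fold were near the 3% of all genes. None of 25 endocytosis genes, none of 26 organic ion transporters and none of 17 glyoxylate and oxalate handling genes passed 1.5-fold either way, with median log2 ratios of 0.03, -0.10 and -0.06. Of 27 sugar, ion and carboxylate transporters 1 rose, Slc2a1, and of 24 amino acid transporters 1, Slc7a12. The ratio of Slc2a1 was 1.53, or 1.3 without cells holding a Havcr1 UMI. Slco1a1, an organic anion transporter that is high in males, had fallen from 178 CPM at D0 to 80.7 at D4 and stood at 69.6 at D7 (0.863, 0.832 to 0.895). Acsm3, a fatty acyl-CoA synthetase, went from 187 to 78.2 by D4 and was 78.2 at D7. Both had levelled off. Of 21 proximal tubule transcription factors 2 rose, among them Nr1h4, the bile acid receptor, from 69.8 to 108 CPM. The ratio of Nr1h4 was 1.55, and 1.42 in cells without Slc7a13 and Slc7a12.

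**Figure D5:**
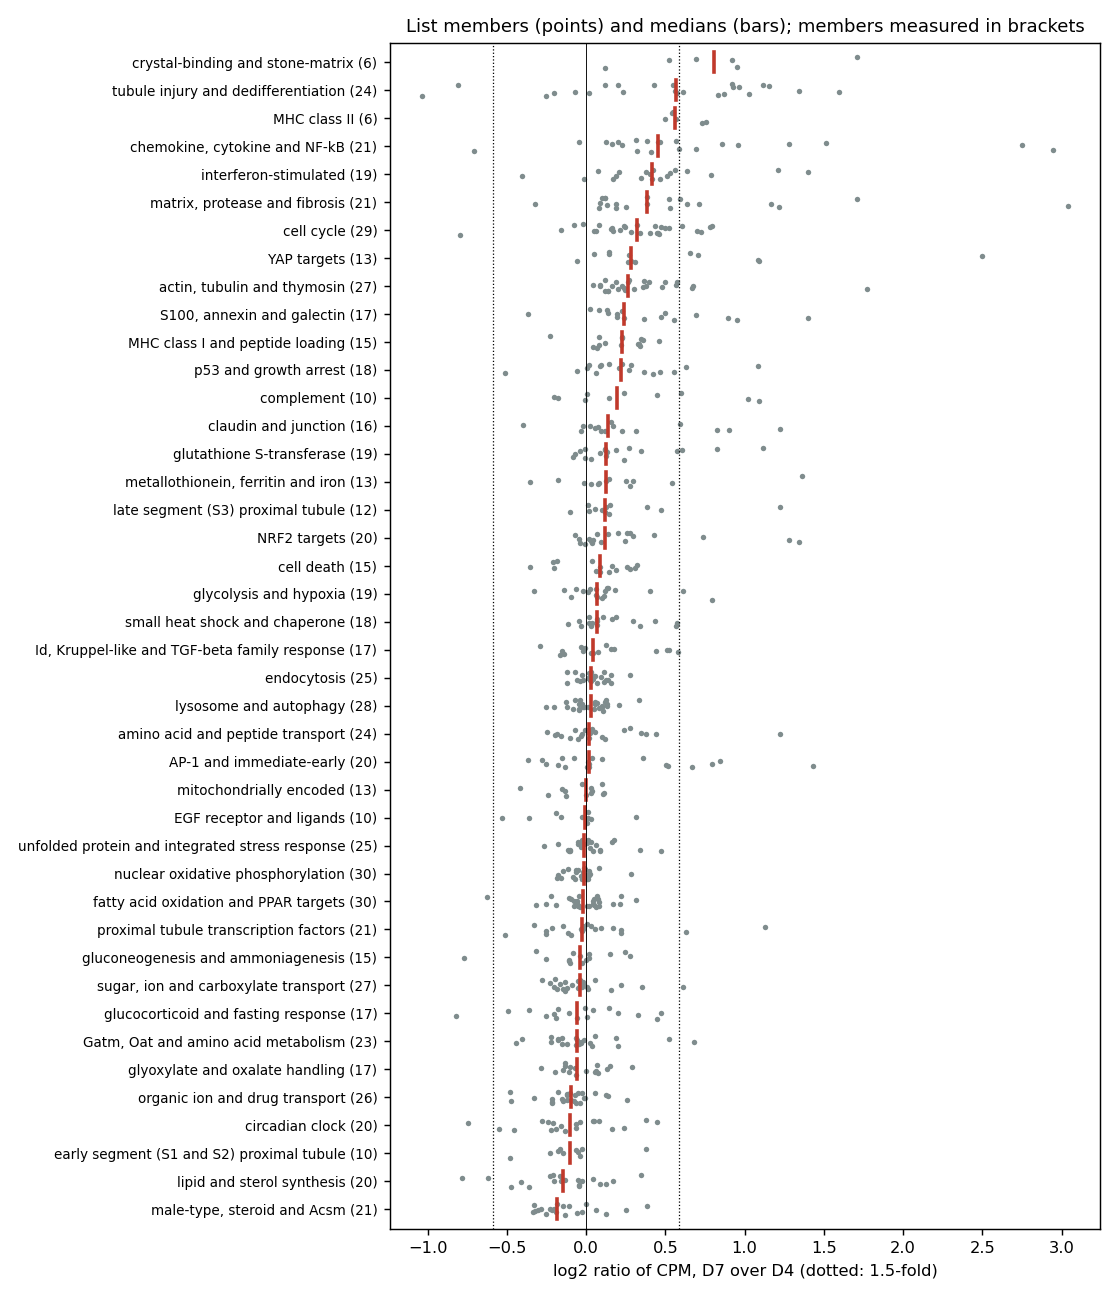
Each grey point is the log2 ratio of D7 over D4 of 1 measured member of a gene list, and each red bar the list's median; dotted lines mark 1.5-fold. Crystal-binding and injury lists have the highest medians, at 0.81 and 0.57, and the male-type list the lowest, at -0.18.

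Several steep falls belonged to few cells. Sprr1a, an envelope protein of stratified epithelium, was at 43.3, 31.2, 15.1 and 3.72 CPM (0.247, 0.216 to 0.281), with 71.5% of its D4 UMIs in 10 cells. Its ratio was 0.0591 in cells without Slc7a13 and Slc7a12 and 0.718 in the others. Upk1a, a urothelial plaque protein, was at 10.8, 10.3, 5.53 and 1.35 CPM, with 84.7% in 10 cells, and the fixed urothelial markers fell alongside at 0.207 of their D4 sum. Their part in the result was not tested. MHC class II genes went the other way with the phagocyte markers: 2 of 6 rose, H2-DMa and H2-DMb1, and the median log2 ratio was 0.56. Carried immune RNA was put at 61.3 of the 94.2 CPM of Cd74 at D4 and 41.6 of 138 at D7. With it taken off all 6 passed 1.5-fold. The ratios were 2.06 and 1.92 for H2-DMa and H2-DMb1, 2.93 for Cd74 and 2.21 for H2-Ab1. For H2-Eb1 and H2-Aa they were 4.17 and 6.09. Taking it off moved the ratios of Cd74, H2-Eb1 and H2-Aa by over 1.5 times, so their sizes cannot be read. Of 19 interferon-stimulated genes, 4 rose (0.41), but 10 cells held 60.3% and 78.5% of the UMIs of Ifit1. The Ifit1 ratio of 2.64 was 0.606 in cells with Slc7a13 or Slc7a12 and 4.55 in the others.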

How the data were processed

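UMI counts per gene and cell were used as deposited by the authors, without normalization. Cell Ranger 3.1.0 and mm10 are named per the submitters' processing notes, and the matrix header names software version 3.0.1 per the file headers. The annotation release and cell calling were not stated in those sources, and the lowest UMIs per barcode were 500, 500, 2919 and 2773 at D0, D1, D4 and D7. Gated UMIs were summed per library and scaled to CPM. Genes with a mean of at least 1 CPM were kept, and 1.5-fold was called. Doublets were kept beyond the gate's limits. An alternative removed the highest Scrublet scores (scanpy 1.11.5) at 0.8% per 1000 barcodes. edgeR 4.0.16 and DESeq2 1.42.0 served only as alternative scalings. Carried RNA was estimated from phagocyte and thick ascending limb markers. Ratios were checked on simulated counts. Members, lists and the gate were chosen with earlier results of these data known. Named genes are the 12 highest and 12 lowest ratios with at least 10 CPM, 4 per class, up to 4 per list, and Havcr1, Lcn2 and Spp1. Left out of the first 2 sets were mitochondrial, ribosomal, haemoglobin, immunoglobulin and model genes, gate genes, markers of other cells, and genes below 0.25 of the immune or distal level. Motifs were searched in RefSeq promoters. Other genes named in the text were chosen after their values were seen. Some named genes are not reported here.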

Additional observations from a re-analysis of the deposited data

How the results depend on the processing

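No paired analysis was possible because each time point has 1 library. Il1b set aside, none of the named genes past 1.5-fold changed direction under these alternatives. Cells with Slc7a13 or Slc7a12 taken alone were not among them, and there Ifit1 was at 0.606. For Il1b no direction can be read with carried RNA taken off, since the estimate was as large as its level. Kcnj2, which the naming rule does not pick, was at 1.98 and at 0.943 in cells without Slc7a13 and Slc7a12. With no filter on the mean, 541 genes were higher and 198 lower, and the classes held 669 still rising, 511 levelled and 198 returning genes of those that rose, 134 levelled and 76 returning of those that fell, and 198 and 85 that rose and fell after D4. At a mean of at least 10 CPM these were 46 and 24, then 81, 82 and 17, then 16 still falling, 36 and 10, then 18 and 10. Without the cells with Slc7a13 or Slc7a12, 471 were higher and 223 lower, and the classes held 177 returning, 111 still falling, 145 levelled and 116 returning, with 203 and 104 after D4. A fold of 2 gave 70 and 32 and an interval wholly past 1.5-fold 113 and 39. Thinned cells gave 67 returning genes that fell and 66 that fell after D4, and the mean of D0 and D1 as the base gave 73 of the former. At 2-fold by D4 the classes held 228, 112 and 32, then 28, 15 and 14, with 137 that rose after D4. At 1.5-fold between D4 and D7 they held 138, 556 and 24, then 29, 147 and 12. TMM scaling gave 197 higher and 115 lower. Taking off carried RNA and leaving out barcodes shared by libraries, both chosen after seeing the data, gave 262 and 87, and 244 and 96. Low counts limit Edn1, Csf1, Ccl2 and Ankrd1.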

Other observations

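Some genes differed from D4 in the same direction at D1 and D7. At 1.5-fold in each of 3 ratios, 30 of 11121 genes were higher at D1 than at D0 and D4 and at D7 than at D4, and 6 were lower. D7 was not compared with D0 or D1 in this rule, and the D7 level of some, such as Gsta4, was nearer to D0 than to D1. Among the first were Socs2, Cish, Maff, Fga and Gsta4, and the lower genes were G6pc, Ttr, Car12, Cyp2d12, Chrna4 and Akr1c18. Car12, a carbonic anhydrase, was at 73.5 CPM at D0, 47.0 at D1, 79.8 at D4 and 52.6 at D7. Gsta4, a glutathione S-transferase whose relatives share sequence, was at 45.2, 87.7, 35.1 and 53.3. The pattern was picked after the values were seen, and the 4 libraries give no test of it.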
